A study of Mus musculus with 10 samples.

Results

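The microRNA family of miR-15, miR-16 and miR-322 was followed through mouse embryonic stem cells that lack successive parts of the RNAi pathway. It was taken as 10 named mature entries of the 1907 in the deposited table: mmu-miR-15a-5p, mmu-miR-15a-3p, mmu-miR-15b-5p, mmu-miR-15b-3p, mmu-miR-16-5p, mmu-miR-16-1-3p, mmu-miR-16-2-3p, mmu-miR-195a-5p, mmu-miR-322-5p and mmu-miR-322-3p, written below without the mouse prefix mmu. They were picked by name, not by their values, and all 10 passed the filter on low counts, as did 481 entries in all. Several 3p strands passed only through mutants in which they were high, as given below for Ago12_KO. Small RNA came from E14 cells of 129/Ola background grown on gelatine with 15% serum and 100 U/mL of the self-renewal factor LIF. WT is unmodified E14, and its labels carry codes P25 and P33. Dgcr8_KO and Drosha_KO each lack a component of the Microprocessor, Dicer_KO lacks Dicer, and Ago12_KO lacks both Ago1 and Ago2. Each group has 2 libraries, and the labels do not say whether these are separate cultures or clones, so p-values measure the spread between these libraries, which may be technical. The Dicer_KO libraries carry different codes, C1 and H11, while date-like codes stand on the Dgcr8_KO and Ago12_KO libraries alone, so batch and genotype cannot be told apart.

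The Microprocessor cuts a primary transcript into a hairpin, Dicer cuts the hairpin into a duplex of a 5p and a 3p strand, and Argonaute keeps one strand as the guide while the passenger is usually lost. The miR-15/16 family is broadly expressed and is known for restraining cell cycle and survival genes such as cyclins and Bcl2. In all these miRNAs the 5p strand is the usual guide, and the 3p strands are usually passengers.

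The 5 guides are grouped by the seed they share, AGCAGCA, which lies at bases 2 to 8 and largely sets target choice. They are shown 5′ to 3′ with the seed in capitals, from RefSeq on GRCm38.p6, because they differ outside it and their counts changed unequally across the mutants.
miR-16-5p: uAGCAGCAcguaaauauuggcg
miR-15a-5p: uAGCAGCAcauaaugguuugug
miR-15b-5p: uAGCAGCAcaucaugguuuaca
miR-195a-5p: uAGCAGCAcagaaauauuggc
miR-322-5p: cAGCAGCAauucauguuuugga
miR-497a-5p: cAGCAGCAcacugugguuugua
The last line is not a member but carries the same seed and comes from the hairpin beside miR-195a. Of 1623 table entries with a sequence, 10 have this seed. miR-16-5p and miR-195a-5p are the closest pair of members, identical at 19 of 21 compared bases and differing by G10A and U11G, counted from the 5′ end of miR-16-5p. miR-15a-5p and miR-15b-5p are identical at 18 of 22 bases, and miR-16-5p and miR-322-5p at only 12 of 22.

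The 3p strands do not share a seed, and each of the 5 3p members has one found in no other table entry with a sequence. They are shown with their own seed in capitals, together with the 3p strand of miR-195a, because the results below set each against its guide.
miR-16-1-3p: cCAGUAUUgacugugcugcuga
miR-16-2-3p: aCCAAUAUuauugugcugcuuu
miR-15a-3p: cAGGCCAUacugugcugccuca
miR-15b-3p: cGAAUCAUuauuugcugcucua
miR-322-3p: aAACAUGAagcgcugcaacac
miR-195a-3p: cCAAUAUUggcugugcugcucc

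The guides come from 6 hairpin genes. Mir15a (chr14:61632027-61632110, minus strand) lies in an intron of the noncoding gene Dleu2, and Mir16-1 (chr14:61631880-61631972, minus strand) lies 54 bases away within an annotated Dleu2 exon. Mir15b (chr3:69009772-69009835, plus strand) and Mir16-2 (chr3:69009902-69009996, plus strand) are 66 bases apart in introns of Smc4, which encodes a condensin subunit. Mir195a (chr11:70235042-70235135, plus strand) and Mir322 (chrX:53054255-53054349, minus strand) overlap no other gene in GENCODE M21. miR-16-5p is cut from both Mir16-1 and Mir16-2, so its counts cannot be assigned to either, whereas their 3p strands differ and can. The 2 hairpins are shown with both mature strands in capitals, since they give the same guide but different passengers.
Mir16-1: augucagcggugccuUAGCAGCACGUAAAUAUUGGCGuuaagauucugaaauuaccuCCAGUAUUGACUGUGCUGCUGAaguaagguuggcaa
Mir16-2: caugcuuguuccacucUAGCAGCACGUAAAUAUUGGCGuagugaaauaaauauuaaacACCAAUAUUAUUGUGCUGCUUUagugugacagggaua

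Depth set what could be seen. WT libraries had 1943868 and 2357868 miRNA counts in total, Dgcr8_KO 289539 and 408654, Drosha_KO 39511 and 40306, Dicer_KO 37476 and 45222, and Ago12_KO 229407 and 349312. Levels are therefore in CPM, a count divided by the total count of its library and multiplied by 1000000, a relative scale on which less miRNA per cell and fewer sequenced reads cannot be told apart. A total of 3 counts over both libraries, used as the limit that 0 counts allow, equals 0.697 CPM for WT, 4.30 for Dgcr8_KO, 5.18 for Ago12_KO, 36.3 for Dicer_KO and 37.6 for Drosha_KO. Intervals and such limits cover counting error only. Summed stem cell miRNAs of the miR-290 and miR-302 clusters (9 markers) made up 13.7% to 14.8% of counts in WT, 10.3% to 10.5% in Dgcr8_KO, 12.5% to 13.4% in Drosha_KO, 6.40% to 7.14% in Ago12_KO and 0.743% to 0.998% in Dicer_KO. Of these 9, 3 had no count in Drosha_KO and 3 had none in Dicer_KO, while all were counted in each other group. Blood markers (6 miRNAs) made up 0.135% to 0.176% of counts in WT and were above that in Dgcr8_KO (0.473% to 0.478%), Drosha_KO (0.350% to 0.564%) and Ago12_KO (0.866% to 1.13%), and below it in Dicer_KO (0.0427% to 0.0597%). Of these 6, 1 had no count in WT or Dgcr8_KO, and 3 had none in each other mutant. Fibroblast or feeder markers (6 miRNAs) made up 0.259% to 0.349% in WT, 0.302% to 0.313% in Dgcr8_KO and 0.143% to 0.300% in Ago12_KO, with Drosha_KO above WT (0.407% to 0.660%) and Dicer_KO below it (0.0553% to 0.0694%). Of these markers, 2 had no count in Drosha_KO, 2 had none in Dicer_KO and 1 had none in each other group. Neural markers (4 miRNAs) made up 0.297% to 0.320% in WT, 0.157% to 0.318% in Drosha_KO, and less than WT in Dgcr8_KO (0.145% to 0.164%), Ago12_KO (0.0789% to 0.0916%) and Dicer_KO (0.0213% to 0.0464%). Only in Dicer_KO did a neural marker, 1 of the 4, have no count. The 3 muscle markers reached at most 0.000979% in any library. The part of these shifts in the results below was not tested.

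In WT the family was nearly all miR-16-5p. The 10 members held 2.68% and 2.49% of all counts in the WT libraries, and miR-16-5p was 95.4% and 94.9% of the family. Mean levels, all as CPM ± SD with n = 2, were 24594 ± 1362 for miR-16-5p, 519 ± 9.86 for miR-15b-5p, 279 ± 7.07 for miR-15a-5p, 170 ± 7.45 for miR-195a-5p and 130 ± 14.7 for miR-322-5p. These mature strands are all 21 or 22 bases long, so no correction for length was needed, and neighbours in this order did not overlap between libraries. Each passenger was below its guide. miR-15b-3p stood at 76.6 ± 2.07 CPM, miR-16-1-3p at 28.7 ± 5.22, miR-322-3p at 21.7 ± 4.27, miR-16-2-3p at 18.1 ± 0.164 and miR-15a-3p at 9.37 ± 2.34.

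The family's share of counts was lower in every mutant library than in WT. It was 2.15% and 2.05% in Dgcr8_KO, 1.68% and 1.27% in Ago12_KO, 0.749% and 0.675% in Drosha_KO, and 0.438% and 0.480% in Dicer_KO. Groups did not overlap, but with 2 libraries against 2 the smallest p of an exact permutation test is 0.333, so no share was tested. The makeup changed as well. miR-16-5p made up 98.7% and 98.8% of the family in Dgcr8_KO and 95.3% and 96.3% in Drosha_KO, but 89.3% and 86.6% in Ago12_KO and 59.6% and 61.1% in Dicer_KO. All 3p strands together were 0.563% and 0.635% of the family in WT, 3.75% and 4.99% in Ago12_KO and 13.6% and 12.8% in Dicer_KO.

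**Figure D1:**
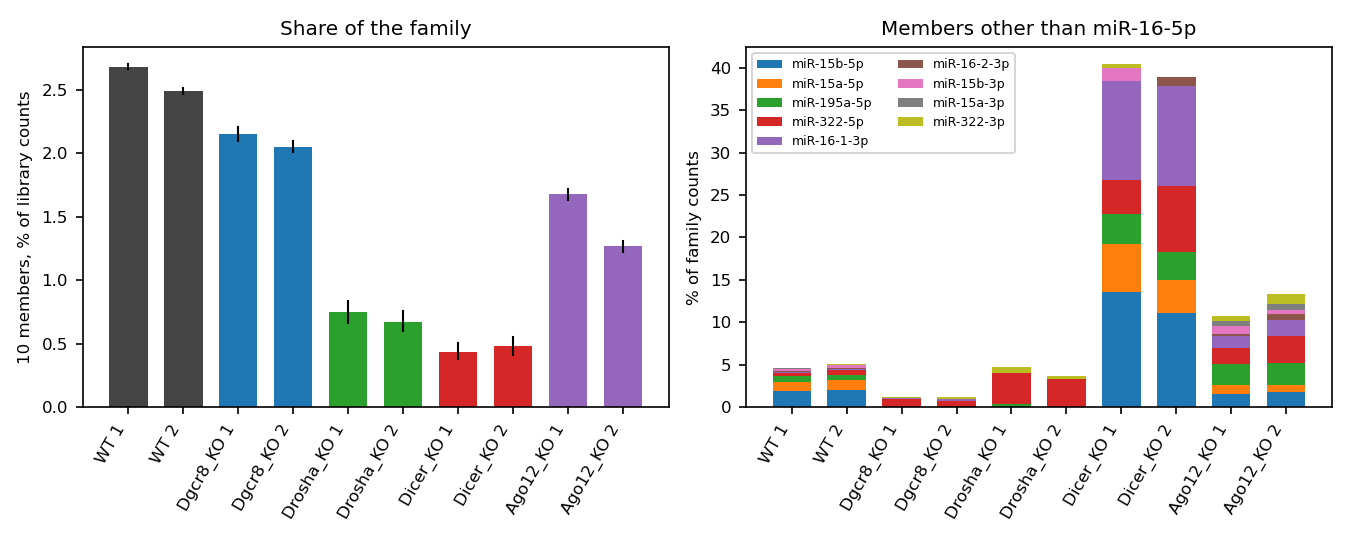
Left, the 10 members as a percentage of all counts in each of the 10 libraries, with bars for the 95% exact binomial interval. Right, the members other than miR-16-5p as a percentage of family counts: their stack is shortest in Dgcr8_KO and tallest in Dicer_KO, where miR-16-5p was only 59.6% and 61.1% of the family and miR-15b-5p and miR-16-1-3p made up most of the rest.

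Loss of Dgcr8 split guides that share a seed. miR-15a-5p and miR-15b-5p disappeared, miR-195a-5p fell to a few counts, and miR-16-5p and miR-322-5p did not pass the test. Of the 10 members 5 fell, beside 41% of all entries tested. Beside 32.4% of all entries that rose, 0 members did, and 0 did at an unadjusted edgeR p under 0.05 or with DESeq2.

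miR-15b-5p had 1241 and 996 counts in the WT libraries and 0 in both Dgcr8_KO libraries. That is at least 121-fold lower (edgeR adjusted p = 2.54e-06). miR-15a-5p had 646 and 552 counts in WT and 0 in both Dgcr8_KO libraries, at least 64.9-fold lower (edgeR adjusted p = 1.03e-05). Their passengers were also at 0: miR-15b-3p was at least 17.8-fold lower (edgeR adjusted p = 0.000628), and miR-15a-3p at least 2.18-fold lower (edgeR adjusted p = 0.0125). Leaving out Dgcr8_KO replicate 2 ended the miR-15a-3p call (edgeR adjusted p = 0.0738, with alternatives from 0.000656 to 0.0738). No read of either hairpin was thus counted in Dgcr8_KO.

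miR-195a-5p had 413 and 320 counts in WT and 3 and 5 in Dgcr8_KO, or 175 and 165 CPM against 10.4 and 12.2 CPM. The groups were far apart, and its log2 fold change was -3.87 (SE 0.46, edgeR adjusted p = 2.64e-05).

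miR-16-5p, the abundant guide, stood at 25557 and 23631 CPM in WT and at 21248 and 20289 CPM in Dgcr8_KO, from 6152 and 8291 counts. Both Dgcr8_KO libraries were below both WT libraries, by a log2 fold change of -0.24 that did not pass the test (SE 0.26, edgeR adjusted p = 0.406). It passed when only these groups were fitted, with the same fold change (edgeR adjusted p = 0.0266, range over alternatives 0.000148 to 0.719). miR-322-5p stood at 120 and 140 CPM in WT and 197 and 132 CPM in Dgcr8_KO, so the groups overlapped (log2 fold change 0.33, edgeR adjusted p = 0.411). Its passenger miR-322-3p had 6 and 11 counts, 23.8 ± 4.38 CPM against 21.7 ± 4.27 in WT, also overlapping (log2 fold change 0.16, edgeR adjusted p = 0.788). That small difference changed sign with TMM factors, without scaling, without WT replicate 1 (-0.034) and without Dgcr8_KO replicate 2 (-0.061).

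The genomic neighbours miR-15b and miR-16-2 parted within one intron of Smc4. In Dgcr8_KO miR-16-2-3p kept 3 and 5 counts, 11.3 ± 1.33 CPM against 18.1 ± 0.164 in WT (log2 fold change -0.66, edgeR adjusted p = 0.379), while both strands of miR-15b were at 0. On chromosome 14, miR-16-1-3p had 9 and 23 counts in Dgcr8_KO, 43.7 ± 17.8 CPM against 28.7 ± 5.22 in WT (log2 fold change 0.64, edgeR adjusted p = 0.175), while both strands of its neighbour miR-15a were at 0. As a share that needs no library size, miR-15b-5p was 2.02% and 2.12% of miR-15b-5p plus miR-16-5p in WT. In Dgcr8_KO it was 0 of 6152 and 0 of 8291 counts, which allow a share of up to 0.0488% and 0.0362%.

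**Figure D2:**
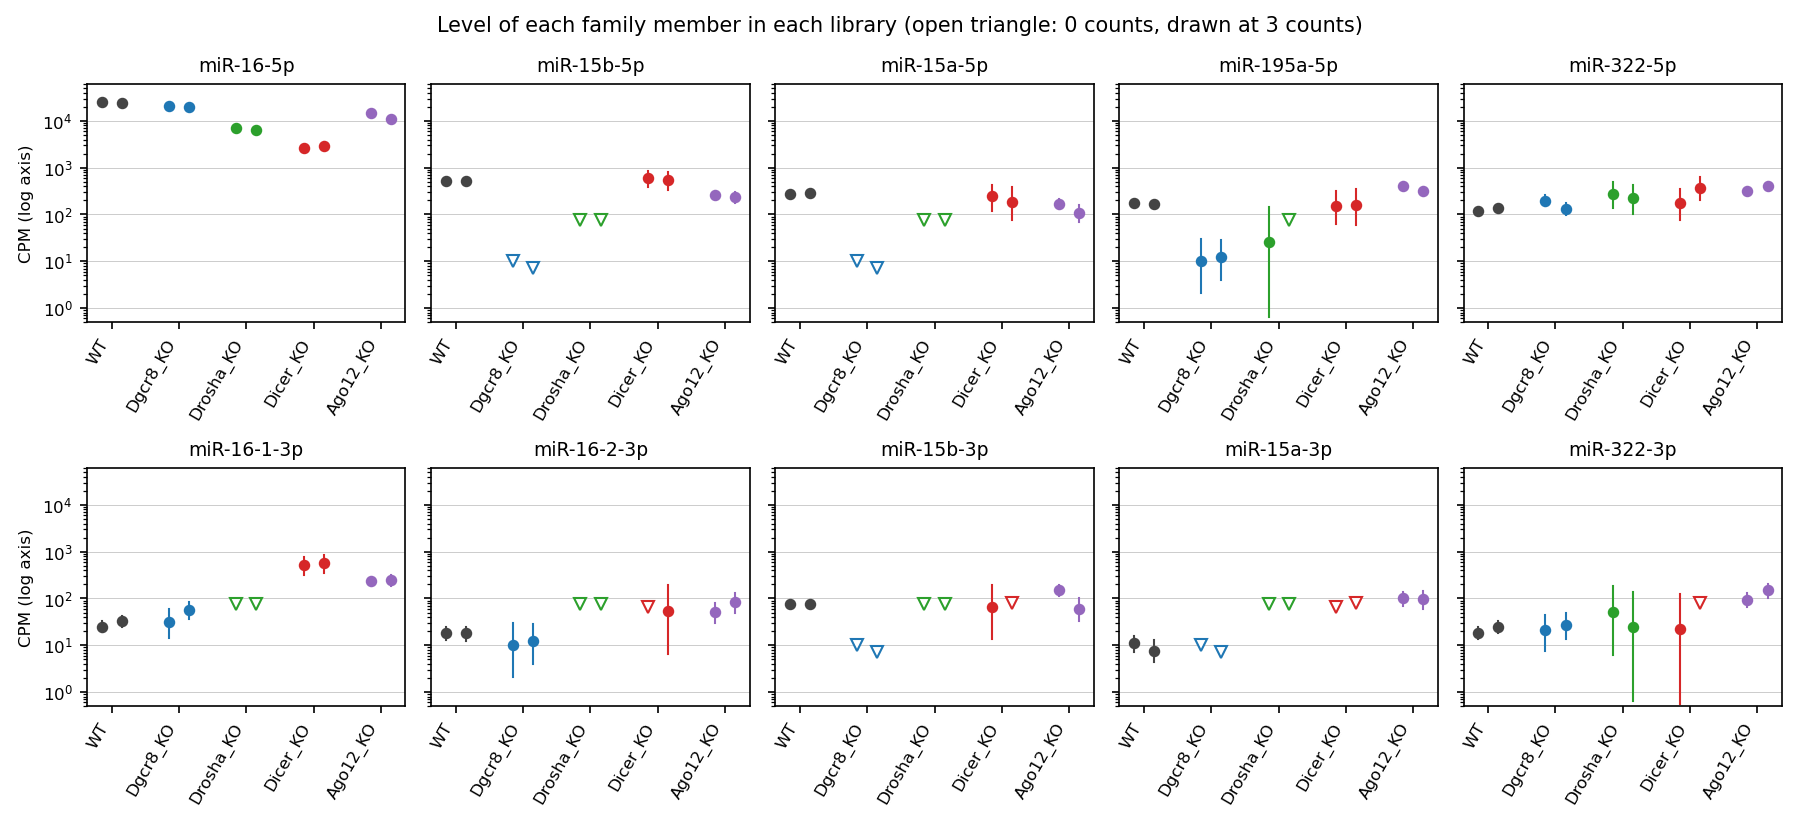
Level of each member in each library, in CPM on a log axis, with 2 points per group, bars for the 95% exact binomial interval of 1 library, and open triangles for 0 counts drawn at the level of 3 counts. miR-15a and miR-15b are at 0 in all Dgcr8_KO and Drosha_KO libraries, whereas miR-16-5p and miR-322-5p are counted in every library.

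The same guides were missing without Drosha, and miR-16-5p also fell. Of the 10 members 5 fell, beside 31.6% of all entries tested. Beside 26.2% of all entries that rose, 0 members did, and 0 did at an unadjusted edgeR p under 0.05, while DESeq2 with its own size factors called miR-322-5p higher. These comparisons share the WT libraries with those of Dgcr8_KO.

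miR-15b-5p and miR-15a-5p were at 0 counts in both Drosha_KO libraries. Because those libraries were shallow, the bounds are weaker, at least 13.8-fold lower for miR-15b-5p (edgeR adjusted p = 6.88e-05) and at least 7.42-fold lower for miR-15a-5p (edgeR adjusted p = 0.000629). miR-15b-3p was also at 0, at least 2.04-fold lower (edgeR adjusted p = 0.0453). That call was lost without either WT library (edgeR adjusted p = 0.0760 and 0.0712) and without either Drosha_KO library (0.108 and 0.103), in a range over alternatives of 6.78e-05 to 0.108. miR-195a-5p had 1 count in Drosha_KO, a ratio to WT of 0.0735 with a 95% counting interval of 0.00186 to 0.411 (edgeR adjusted p = 0.00258).

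miR-16-5p stood at 7137 and 6500 CPM in Drosha_KO, from 282 and 262 counts, below every WT and Dgcr8_KO library. It fell by 1.85 on the log2 scale from WT (SE 0.27, edgeR adjusted p = 0.000119). miR-322-5p had 11 and 9 counts, 251 ± 39.0 CPM, above both WT libraries without passing the test (log2 fold change 0.95, edgeR adjusted p = 0.0897). miR-16-1-3p, miR-16-2-3p and miR-15a-3p had no count in Drosha_KO. Their WT levels lie below what 3 counts would give there, so no bound on a fall could be set at this depth. None passed the test (edgeR adjusted p = 0.0665, 0.177 and 0.282). miR-322-3p had 3 counts, a ratio to WT of 1.76 with a counting interval of 0.356 to 5.30.

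In the direct comparison of the Microprocessor mutants, 1 member passed the test. miR-16-5p was higher in Dgcr8_KO than in Drosha_KO by 1.61 on the log2 scale (edgeR adjusted p = 0.00218). That is 1 of 10 members beside 5.61% of all entries called higher. Lower in Dgcr8_KO were 0 members beside 8.32% of entries, with 0 at an unadjusted edgeR p under 0.05 and 0 with DESeq2. Where both groups were at 0 counts, as for both strands of miR-15a and miR-15b, no comparison could be made.

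Dicer loss gave another order among the guides. miR-16-5p fell, while miR-15b-5p, miR-15a-5p and miR-195a-5p, absent or nearly so without the Microprocessor, were counted at levels close to WT on the CPM scale. Of the 10 members 1 fell, beside 42.6% of all entries tested, and 1 rose, beside 13.3%. All members had a median log2 fold change of -0.24, and all entries tested had -2.78.

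miR-16-5p had 118 and 110 counts in Dicer_KO, 2609 and 2935 CPM, below every library of the other groups. It fell by 3.15 on the log2 scale from WT (SE 0.28, edgeR adjusted p = 3.62e-06). miR-15b-5p had 27 and 20 counts, 597 and 534 CPM beside 526 and 512 CPM in WT (log2 fold change 0.13, edgeR adjusted p = 0.755). Both Dicer_KO libraries lay slightly above WT, within counting error.

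miR-15a-5p had 11 and 7 counts, 243 and 187 CPM, lower than both WT libraries without passing the test (log2 fold change -0.36, edgeR adjusted p = 0.514). miR-195a-5p had 7 and 6 counts, 155 and 160 CPM, just under WT (log2 fold change -0.11, edgeR adjusted p = 0.836). miR-322-5p had 8 and 14 counts, 177 and 374 CPM, both above WT without passing the test (log2 fold change 1.05, edgeR adjusted p = 0.0631). The miR-322-5p rise passed with DESeq2 size factors in edgeR, with totals without fragment-like entries and with only the groups compared. It also passed with DESeq2 on its own size factors or on column totals, and its sign changed without scaling. Over all edgeR and DESeq2 alternatives the adjusted p ran from 3.68e-08 to 0.537. Without Dicer_KO replicate 1 its log2 fold change was 1.52.

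A passenger strand rose. miR-16-1-3p had 59 and 63 counts in WT, a mean of 28.7 ± 5.22 CPM, and 23 and 21 counts in Dicer_KO, 509 and 560 CPM. The groups were far apart, with a log2 fold change of 4.21 (SE 0.41, edgeR adjusted p = 1.22e-05). The passenger of the other miR-16 hairpin did not follow on so few counts: miR-16-2-3p had 0 and 2 counts, a ratio to WT of 1.33 with a counting interval of 0.159 to 4.98. miR-15b-3p had 3 and 0 counts (ratio 0.473, interval 0.0970 to 1.39), and miR-322-3p had 1 and 0 (ratio 0.565, interval 0.0142 to 3.23). miR-15a-3p had none, and its WT level was under the limit.

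These CPM values depend on the makeup of the Dicer_KO libraries. Counting totals without 6 fragment-like entries (miR-6240, miR-6236, miR-6239, miR-1983, miR-3963 and miR-5126) raised the Dicer_KO side, so that 3 members were called higher. miR-15b-5p was then higher by 1.42 (edgeR adjusted p = 0.00591, range over alternatives 2.77e-06 to 1.00), and miR-15a-5p and miR-195a-5p changed sign without passing the test. Ratios between members are free of this: miR-15b-5p was 18.6% and 15.4% of miR-15b-5p plus miR-16-5p in Dicer_KO, above 2.02% and 2.12% in WT. miR-322-5p was 6.35% and 11.3% of miR-322-5p plus miR-16-5p, above 0.466% and 0.591% in WT.

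Between Dicer_KO and Drosha_KO, 4 of 10 members were higher in Dicer_KO, beside 13.5% of all entries, and 1 was lower, beside 30.4%. miR-15b-5p was at least 15.0-fold higher (edgeR adjusted p = 0.000121), miR-16-1-3p at least 14.2-fold (edgeR adjusted p = 0.000181) and miR-15a-5p at least 5.72-fold (edgeR adjusted p = 0.00304). miR-195a-5p was 12.5 times higher, on 1 count in Drosha_KO and with a counting interval of 1.88 to 533 (edgeR adjusted p = 0.0105). Without Drosha_KO replicate 2 the miR-195a-5p call was lost (edgeR adjusted p = 0.0745, range over alternatives 0.00136 to 0.0745). miR-16-5p was the one lower, by a log2 fold change of -1.30 (edgeR adjusted p = 0.00235). Without the fragment-like entries in the totals that became -0.076 (edgeR adjusted p = 0.882, range over alternatives 3.82e-07 to 0.992).

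**Figure D3:**
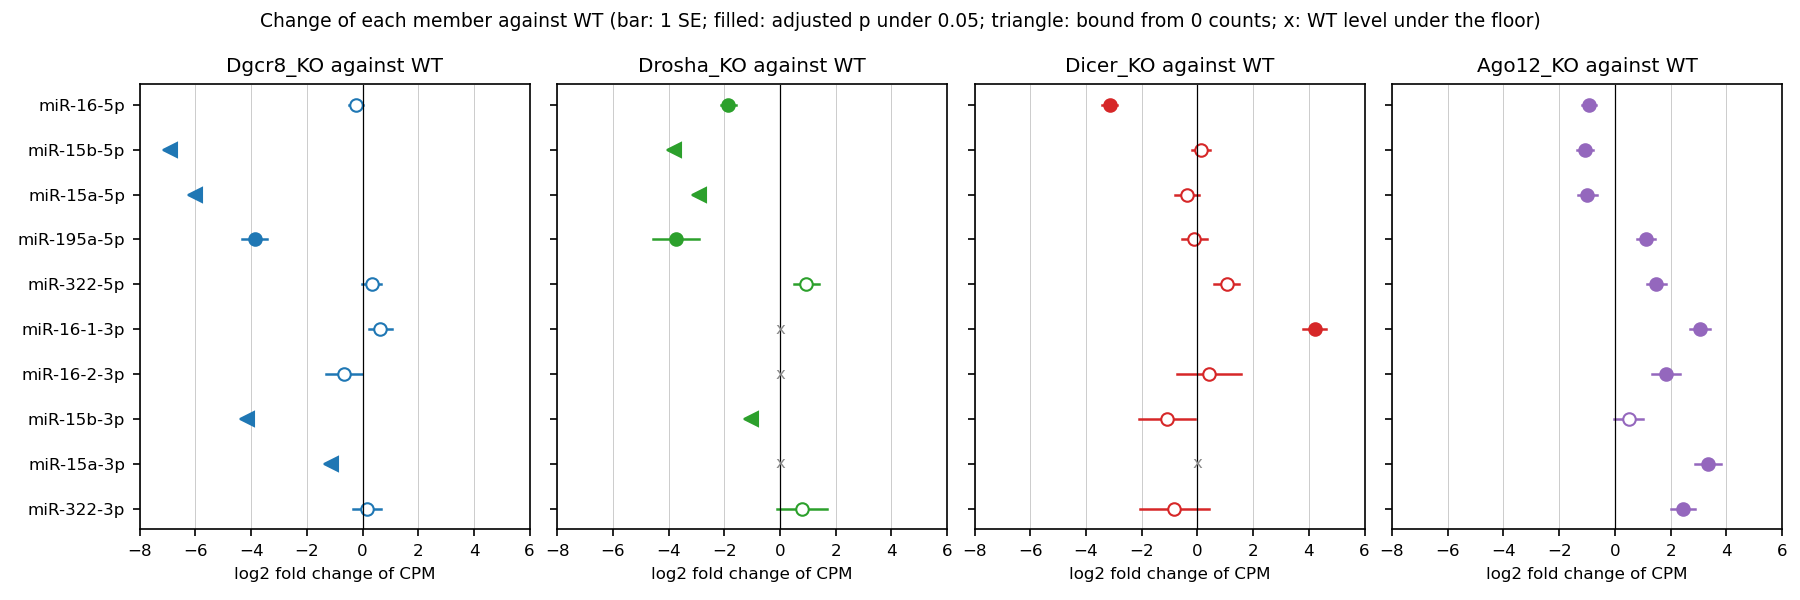
Log2 fold change of CPM of each member against WT in the 4 mutants. Points with bars are edgeR estimates ± 1 SE, filled where the adjusted p is under 0.05, triangles are bounds from 0 counts, and a cross marks a WT level too low to compare; points in Drosha_KO and Dicer_KO that rest on 1 to 3 counts are described in the text by their counting interval. In Ago12_KO the first 3 guides lie left of 0 and the passengers right of it.

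Without Ago1 and Ago2, the miR-15 and miR-16 guides fell, miR-195a-5p and miR-322-5p rose, and 4 of 5 passengers rose. Of the 10 members 3 fell, beside 25.8% of all entries tested, and 6 rose, beside 28.7%. The 5 guides had a median log2 fold change of -0.92 and the 5 passengers 2.46, where all entries had -0.02. The filter asked for 38.54 CPM in at least 2 libraries. miR-15a-3p, miR-16-2-3p and miR-322-3p met it only through Ago12_KO, and miR-16-1-3p only through Ago12_KO and Dicer_KO. Had miR-15a-3p, miR-16-2-3p and miR-322-3p been low in Ago12_KO, they would not have been tested. For miR-16-1-3p the Dicer_KO libraries alone would have met the filter. The number of passengers that rose, their median and the count of 6 members that rose are thus a description and lend no support. The counts were sensitive to single libraries: without WT replicate 1, 0 fell and 3 rose, without WT replicate 2, 1 fell and 4 rose, and without Ago12_KO replicate 2, 1 fell and 5 rose.

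miR-16-5p stood at 14975 and 10967 CPM in Ago12_KO, below both WT libraries, and fell by 0.92 on the log2 scale (SE 0.26, edgeR adjusted p = 0.0104). miR-15b-5p had 92 and 53 counts, 263 and 231 CPM against 526 and 512 CPM, and fell by 1.07 (SE 0.29, edgeR adjusted p = 0.0124). miR-15a-5p had 59 and 25 counts, 169 and 109 CPM against 274 and 284 CPM, and fell by 0.99 (edgeR adjusted p = 0.0396). All 3 groups of Ago12_KO values lay below WT, and the drops were of similar size. The miR-16-5p call was lost without WT replicate 1 or Ago12_KO replicate 2 (edgeR adjusted p = 0.0588 and 0.0686, range over alternatives 3.81e-05 to 0.0686). The miR-15b-5p call was lost without either WT library (0.0862 and 0.0790, edgeR range over alternatives 7.53e-07 to 0.0862). The miR-15a-5p call was lost without either WT library (0.151 and 0.172), either Dgcr8_KO library (0.0609 and 0.0599) or Ago12_KO replicate 2 (0.111), and with a replicate block (0.0600, edgeR range over alternatives 0.000143 to 0.172).

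miR-195a-5p, nearly identical to miR-16-5p in sequence, went the other way. It stood at 415 and 314 CPM in Ago12_KO, from 145 and 72 counts, against 175 and 165 CPM in WT, a log2 fold change of 1.11 (edgeR adjusted p = 0.0120). The call was lost without either WT library (edgeR adjusted p = 0.0895 and 0.113) and with TMM factors, and the sign changed without scaling (range over alternatives 0.00101 to 0.232). Relative to miR-16-5p, miR-195a-5p was 0.681% and 0.692% of the sum of both in WT and 2.70% and 2.78% in Ago12_KO, with no overlap. miR-322-5p stood at 323 and 405 CPM against 120 and 140 CPM, a log2 fold change of 1.48 (SE 0.34, edgeR adjusted p = 0.00331). The miR-322-5p call was lost with TMM factors and without WT replicate 1 (edgeR adjusted p = 0.0505, range over alternatives 8.11e-05 to 0.0602), and its sign changed without scaling.

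Most passengers had larger changes than the guides. This comparison is a description, because most of these passengers passed the filter only through Ago12_KO. miR-15a-3p had 26 and 15 counts in WT, 11.0 and 7.72 CPM, and 35 and 22 counts in Ago12_KO, 100.2 and 95.9 CPM. It rose by 3.35 on the log2 scale (SE 0.47, edgeR adjusted p = 0.000451), while its guide fell. miR-15a-3p passed the filter only through Ago12_KO, so the p-value of its rise lends no support. miR-16-1-3p stood at 235 and 244 CPM against a WT mean of 28.7 ± 5.22, a log2 fold change of 3.05 (SE 0.37, edgeR adjusted p = 9.48e-05). In both, all Ago12_KO libraries were several times above all WT libraries.

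miR-322-3p had 33 and 34 counts, 94.5 and 148 CPM against 18.7 and 24.7 CPM, a log2 fold change of 2.46 (SE 0.43, edgeR adjusted p = 0.000595). miR-16-2-3p had 18 and 19 counts, 51.5 and 82.8 CPM against 18.2 and 18.0 CPM, a log2 fold change of 1.85 (edgeR adjusted p = 0.0105). miR-322-3p and miR-16-2-3p passed the filter only through Ago12_KO, so the p-values of their rise lend no support. The miR-16-2-3p call was lost with TMM factors, without either WT library (edgeR adjusted p = 0.0619 and 0.0629) and without Ago12_KO replicate 2 (0.0536, range over alternatives 0.00177 to 0.113). miR-15b-3p was the exception among the passengers: its Ago12_KO libraries, at 149 and 61.0 CPM, lay on both sides of WT at 78.0 and 75.1 CPM (log2 fold change 0.49, edgeR adjusted p = 0.449). Its difference was -0.33 without Ago12_KO replicate 1. Without scaling miR-16-2-3p and miR-322-3p changed sign, and miR-15a-3p and miR-16-1-3p kept theirs without passing the test.

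Against Dicer_KO, Ago12_KO had 4 members higher, beside 38.5% of all entries, and 2 lower, beside 8.94%. Of the 4, miR-15a-3p and miR-322-3p passed the filter only through Ago12_KO, so their calls and the count of 4 are a description. miR-16-5p was higher by 2.23 on the log2 scale (edgeR adjusted p = 5.85e-05), a call lost with DESeq2 size factors (0.176, edgeR range over alternatives 1.04e-20 to 0.176). miR-15a-3p was at least 2.70-fold higher (edgeR adjusted p = 0.0137), miR-322-3p was 9.57 times higher on 1 count in Dicer_KO, with a counting interval of 1.66 to 384 (edgeR adjusted p = 0.0190), and miR-195a-5p was higher by 1.22 (edgeR adjusted p = 0.0418). miR-15b-5p and miR-16-1-3p were lower, by log2 fold changes of -1.19 (edgeR adjusted p = 0.0184) and -1.16 (edgeR adjusted p = 0.0332). The other 5 calls were each lost in at least 4 of 20 alternatives. Single libraries were enough: miR-15a-3p and miR-15b-5p lost the call without Dicer_KO replicate 1 (edgeR adjusted p = 0.0689 and 0.0903) and miR-322-3p without Dicer_KO replicate 2 (0.0975). miR-16-1-3p and miR-195a-5p lost it without either WT library, either Dicer_KO library or Ago12_KO replicate 1, and miR-195a-5p also without either Dgcr8_KO library. Without Dicer_KO replicate 1, 2 were higher and 0 lower, and without Dicer_KO replicate 2, 2 were higher and 1 lower. Without either WT library, or without Ago12_KO replicate 1, 1 was lower.

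The balance of guide and passenger within a hairpin needs no library size. limma was run on its log2 ratio, (5p + 0.5)/(3p + 0.5), for the 91 hairpins whose arms each averaged 20 counts or more over all libraries. miR-16 (both 3p strands summed), miR-15b and miR-195a passed this minimum, miR-195a only through its 3p counts in Ago12_KO. The balance of miR-16 moved to the passenger in both Dicer_KO and Ago12_KO. In WT the miR-16 passengers were 0.169% and 0.213% of the counts of both arms, from 102 and 98 passenger counts. They were 16.3% (95% Clopper-Pearson interval 10.6% to 23.5%) and 17.3% (11.3% to 24.8%) in Dicer_KO. In Ago12_KO they were 1.88% (1.53% to 2.28%) and 2.89% (2.28% to 3.62%), above WT and below Dicer_KO.

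The miR-16 log2 ratio of guide to passenger fell by 6.75 in Dicer_KO (SE 0.45, limma adjusted p = 1.65e-05) and fell by 3.65 in Ago12_KO (SE 0.45, limma adjusted p = 0.00172). In Dgcr8_KO the share was 0.195% and 0.337% (log2 ratio change -0.47, limma adjusted p = 0.814). In Drosha_KO it was 0 of 282 and 0 of 262 counts, with upper interval bounds of 1.30% and 1.40% that include the WT share. Of the passengers of both miR-16 hairpins, miR-16-2-3p was 42.2% and 35.7% in WT, 3 of 12 and 5 of 28 counts in Dgcr8_KO, 18.0% and 25.3% in Ago12_KO, and 0 of 23 and 2 of 23 counts in Dicer_KO. All these mutant values were below WT, but most counting intervals overlapped that of WT replicate 2 (lower bound 26.3%). The upper bounds were 57.2% and 36.9% in Dgcr8_KO, 26.9% and 36.7% in Ago12_KO, and 28.0% in Dicer_KO replicate 2. Only Dicer_KO replicate 1 (upper bound 14.8%) lay apart from WT, and the difference was not tested.

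miR-195a also moved toward its 3p strand in Ago12_KO. This strand, not a member but needed for the balance, had 45 and 53 counts in WT and 245 and 66 in Ago12_KO, 9.83% and 14.2% of both arms against 62.8% and 47.8%. It was the larger arm in Ago12_KO replicate 1 only. The log2 ratio fell by 3.20 (SE 0.63, limma adjusted p = 0.00365). In CPM both strands were higher, the 3p strand by 4.42 on the log2 scale (edgeR adjusted p = 0.000113). That strand met the arm minimum and the filter on low counts only through Ago12_KO. The p-values of the miR-195a balance and of its 3p strand thus lend no support. For miR-15b the passenger share was 12.9% and 12.8% in WT and 36.1% and 20.9% in Ago12_KO, above WT in both libraries without passing the test (log2 ratio change -1.41, SE 0.75, limma adjusted p = 0.147). That call passed without either Dicer_KO library (limma adjusted p = 0.0314 in each, range over alternatives 0.0314 to 0.484).

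Of the 3 member hairpins tested, 2 moved toward 3p in Ago12_KO, beside 25.3% of all hairpins, and 1 in Dicer_KO, beside 23.1%. Of the 2 in Ago12_KO, miR-195a met the arm minimum only through Ago12_KO. The count of 2 is thus a description and lends no support. miR-15a and miR-322 were under the minimum and are given as shares. The miR-15a passenger was 3.87% (interval 2.54% to 5.62%) and 2.65% (1.49% to 4.33%) of both arms in WT and 37.2% (27.5% to 47.8%) and 46.8% (32.1% to 61.9%) in Ago12_KO. The intervals are far apart. In Dicer_KO it was 0 of 11 and 0 of 7 counts. For miR-322 the share was 13.5% and 15.0% in WT, 22.6% and 26.8% in Ago12_KO, and 9.52% to 16.9% in the Microprocessor mutants, so only Ago12_KO lay above WT in both libraries. For miR-15b, the Dicer_KO share was 3 of 30 and 0 of 20 counts (log2 ratio change 1.41, limma adjusted p = 0.153), which passed without Dicer_KO replicate 1 (limma adjusted p = 0.0114, range over alternatives 0.0114 to 0.776). The balance of miR-15a and miR-15b in Dgcr8_KO and Drosha_KO has no count behind it and is not given.

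**Figure D4:**
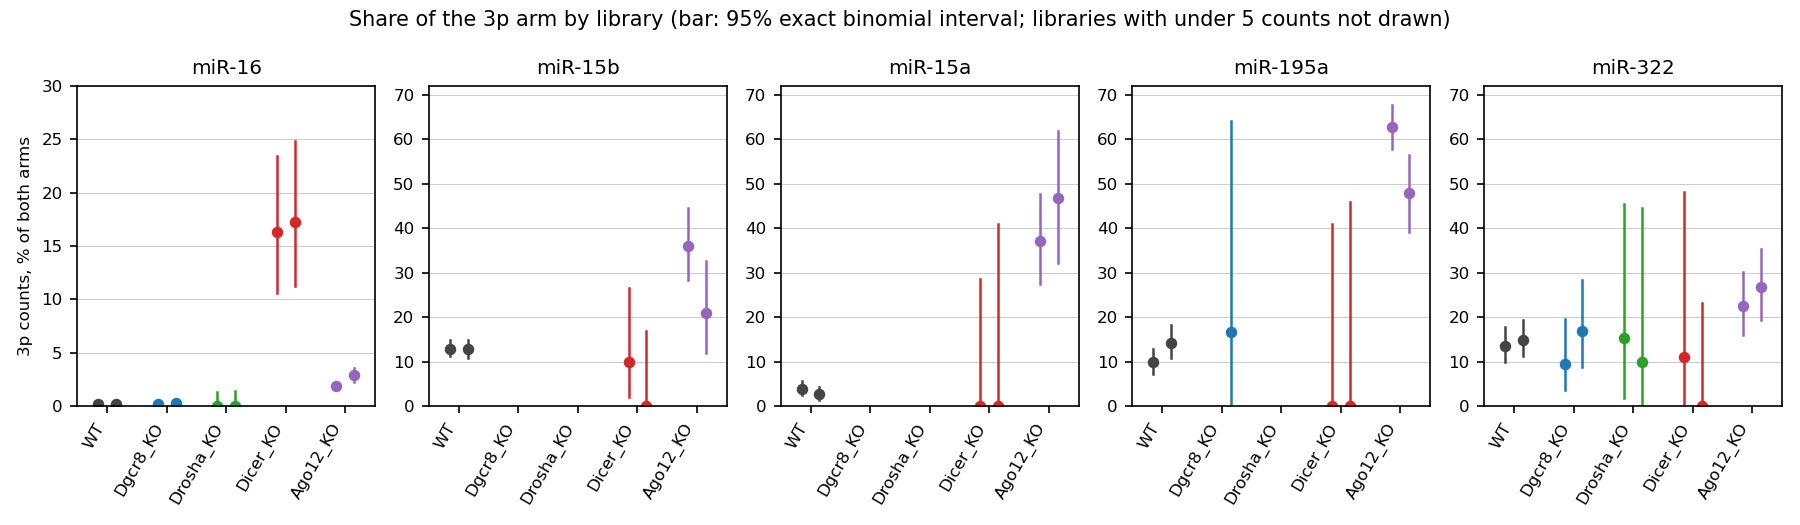
Passenger (3p) counts as a percentage of both arms of each hairpin, 1 point per library with its 95% exact binomial interval, on a shorter axis for miR-16. In Ago12_KO the points lie above WT for all 5 hairpins, and in Dicer_KO for miR-16 only.

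Relatives outside the members were taken from a list of 22 names, made of entries with the same or a near seed, named relatives and passenger strands of the miR-195, miR-497 and miR-503 hairpins, miR-1907, and the other miRNAs of the Mir322 cluster. Of these 18 had a count and 9 were tested. Dgcr8_KO had 3 called lower and 1 higher, Drosha_KO 2 and 1, Ago12_KO 5 and 1, and Dicer_KO 5 and 0 (edgeR, with 0 higher also at an unadjusted p under 0.05). In the same order, all entries tested had 41%, 31.6%, 25.8% and 42.6% called lower and 32.4%, 26.2%, 28.7% and 13.3% called higher, so several of these counts lie near the background. Named after their values were seen, the entries called higher were miR-503-5p in both Microprocessor mutants and miR-195a-3p in Ago12_KO. miR-503-5p passed the filter only through Drosha_KO and miR-195a-3p only through Ago12_KO, so these calls are a description.

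miR-497a-5p shares the seed and lies 241 bases from miR-195a on chromosome 11, yet it was counted in both Microprocessor mutants. It stood at 307 and 323 CPM in WT, 487 and 458 CPM in Dgcr8_KO (log2 fold change 0.58, edgeR adjusted p = 0.0754) and 304 and 372 CPM in Drosha_KO (0.10, edgeR adjusted p = 0.799). In Dicer_KO it had 3 counts, a ratio to WT of 0.115 with a counting interval of 0.0238 to 0.338 (edgeR adjusted p = 0.000591). As a share of the pair, miR-195a-5p was 36.3% and 33.8% in WT, 2.08% and 2.60% in Dgcr8_KO, 1 of 13 and 0 of 15 counts in Drosha_KO, 77.8% and 85.7% in Dicer_KO on 9 and 7 counts, and 68.7% and 54.1% in Ago12_KO. The share of miR-195a-5p was thus below WT in both Microprocessor mutants, on few counts in Drosha_KO, and above it in Dicer_KO and Ago12_KO.

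miR-103-3p, whose seed GCAGCAU is the family seed shifted by 1 base, stood at 4535 ± 97.2 CPM in WT. It did not pass the test in Dgcr8_KO (log2 fold change -0.67, edgeR adjusted p = 0.216) or Drosha_KO (-0.94, edgeR adjusted p = 0.118). It fell by 5.93 in Dicer_KO, on 0 and 6 counts (edgeR adjusted p = 2.99e-05), and fell by 3.40 in Ago12_KO (edgeR adjusted p = 0.000277). Its paralogue miR-107-3p stood at 250 ± 27.4 CPM in WT. It fell by 2.35 in Dicer_KO, on 1 and 3 counts (edgeR adjusted p = 0.00456), and by 2.63 in Ago12_KO (edgeR adjusted p = 0.000181). The Dicer_KO fold changes of both are thus imprecise.

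In the Mir322 cluster, miR-450b-5p had 984 and 868 counts in WT, 1 and 3 in Dgcr8_KO and 0 in Drosha_KO, unlike miR-322-5p. It fell by 6.19 on the log2 scale in Dgcr8_KO (edgeR adjusted p = 9.73e-06) and was at least 11.5-fold lower in Drosha_KO (edgeR adjusted p = 0.000259). miR-351-5p, at 560 ± 133 CPM in WT, passed the test in no mutant, with log2 fold changes of -0.87 in Dgcr8_KO (edgeR adjusted p = 0.0569), 0.81 in Ago12_KO (0.0872), -0.78 in Drosha_KO (0.162) and -1.20 in Dicer_KO (0.0524).

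The entries most like 3 of the guides were found by Pearson's r of log2 CPM over the 10 libraries among 471 other entries, as a description that shares library and depth. For miR-16-5p these were miR-295-3p (r = 0.977), an abundant stem cell miRNA, miR-148a-3p (0.921) and miR-124-3p (0.911). For miR-15b-5p they were miR-425-5p (0.983), miR-423-5p (0.959) and miR-470-5p (0.952), and miR-425-5p and miR-470-5p were likewise at 0 in Dgcr8_KO and Drosha_KO. For miR-322-5p they were miR-221-5p (0.901), miR-146a-5p (0.828) and miR-10b-5p (0.789). Each had its highest mean in Ago12_KO, but the Ago12_KO and Dicer_KO libraries overlapped. The 3 guides thus had no nearest entry in common.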

How the data were processed

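Small RNA was measured in 10 libraries, 2 for each of 5 genotypes of E14 cells, built with the TruSeq small RNA kit from 1 ug of Trizol RNA, per the labels. The values are raw counts of reads, 1 row per mature miRNA, in a single table as deposited. Bowtie and mm10 are named in the submitters' processing notes. Not given in the sources used here are versions, the miRBase release, the tool that counted, and how multi-mapping reads were handled. No member's counts were all multiples of a number above 1.

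The counts were tested with edgeR 4.0.16 in R 4.3.3 (quasi-likelihood, 1 model of all 5 groups, 5 residual degrees of freedom, and each library's size taken as its column total). filterByExpr by group kept 481 of 1907 entries, and p-values were adjusted by Benjamini-Hochberg over all of them, with a call at 0.05. TMM was not the main scaling because it assumes that most entries do not change. Against a group without counts, a fold is a bound computed from 3 counts over both libraries. Arm balance was tested with limma 3.58.1, and intervals came from scipy 1.17.1.

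All 10 members were named, with up to 5 relatives of the highest WT level and the 3 entries most like each of 3 guides. miR-195a-3p and miR-503-5p were named after their values were seen. The members, lists and tests were chosen with earlier results of these data known. Alternatives were other scalings (TMM, DESeq2 size factors, none, totals without fragment-like entries), other filters, only the groups compared, a replicate block, DESeq2 1.42.0, another pseudocount and other minimums for arms, and leaving out each library. A lone library was assumed to vary like the other groups. The tests were tested on simulated data with known changes. Sequences came from RefSeq (GRCm38.p6) and positions from GENCODE M21, and all 10 members had a sequence.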

Additional observations from a re-analysis of the deposited data

How the results depend on the processing

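The fits gave 978 values under alternatives for 51 single results, of which 864 kept direction and side of the threshold, 65 lost the call, 18 gained it and 31 changed sign. Of the sign changes, 14 arose without scaling. The median log2 fold change of all entries against WT, for Dgcr8_KO, Drosha_KO, Dicer_KO and Ago12_KO in turn, was -0.41, -0.87, -2.78 and -0.02 with column totals, and -0.71, -1.47, -3.06 and -0.66 with TMM factors. With DESeq2 size factors in edgeR it was -0.44, -0.75, -1.67 and -0.24, and without scaling, where depth stays in the fold changes, -3.02, -6.40, -7.52 and -2.88.

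Without scaling 10 members were called lower in each of Dgcr8_KO, Drosha_KO and Dicer_KO and 6 in Ago12_KO, with 0 higher in Dicer_KO and Ago12_KO. In the direct comparisons 6 were then higher in Dgcr8_KO than Drosha_KO, and 10 higher and 0 lower in Ago12_KO than Dicer_KO. Signs that changed without scaling became -1.92 (miR-16-1-3p), -2.32 (miR-322-5p) and -2.42 (miR-322-3p) in Dgcr8_KO, and -4.78 (miR-322-5p) in Drosha_KO. In Dicer_KO they became -5.57 (miR-15b-5p), -1.47 (miR-16-1-3p) and -4.64 (miR-322-5p). In Ago12_KO they became -2.32 (miR-15b-3p), -1.07 (miR-16-2-3p), -1.75 (miR-195a-5p), -1.43 (miR-322-5p) and -0.46 (miR-322-3p), and against Dicer_KO 1.62 (miR-15b-5p) and 1.64 (miR-16-1-3p). With TMM factors 3 members were higher in Ago12_KO, and signs changed for miR-322-3p in Dgcr8_KO (-0.14), miR-15b-5p in Dicer_KO (-0.15) and miR-15b-3p in Ago12_KO (-0.15).

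In Dicer_KO against WT, 3 members were higher with DESeq2 size factors in edgeR, 3 with totals without fragment-like entries, 4 with DESeq2 and its own size factors, 2 with DESeq2 on column totals and 2 with only the groups compared. Under the first 3 of these in turn, miR-15a-5p was 1.02, 0.93 and 1.02, miR-195a-5p was 1.28, 1.19 and 1.27, and miR-195a-5p in Ago12_KO against Dicer_KO was -0.39, -0.053 and -0.39. Under the same 3, 0 members were lower in Dicer_KO than Drosha_KO, and 0, 1 and 0 were higher in Ago12_KO than Dicer_KO. Lower in Ago12_KO than Dicer_KO were 0 without a filter, 0 with only the groups compared and 4 with DESeq2's own size factors. In Drosha_KO 1 member was higher with DESeq2's own size factors. The cause of these changes was not tested beyond what each alternative changes by construction.

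Leaving out each library gave 4 to 5 members lower in Dgcr8_KO, 4 to 5 in Drosha_KO, 1 in Dicer_KO with 1 to 2 higher, and 0 to 3 lower with 3 to 6 higher in Ago12_KO. It gave 3 to 4 higher in Dicer_KO than Drosha_KO, and 0 to 2 lower and 2 to 4 higher in Ago12_KO than Dicer_KO. As a description, it gave 2 to 3 hairpins toward 3p in Ago12_KO. Signs changed for miR-322-3p in Dgcr8_KO (0.16, from -0.061 to 0.36 over these, negative without WT replicate 1 or Dgcr8_KO replicate 2) and miR-15b-3p in Ago12_KO (-0.33 to 0.96, negative without Ago12_KO replicate 1). The miR-16 balance in Drosha_KO, 0.06, became -0.93 with a pseudocount of 1 and ran from -0.11, without WT replicate 2, to 0.22.

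Replicate numbers share nothing the labels state, and deviations of same-numbered libraries correlated at -0.065 to 0.136. With the replicate number as a block, Dgcr8_KO and Drosha_KO had 5 members lower, Dicer_KO 1 and Ago12_KO 2, and 1 and 6 were higher in Dicer_KO and Ago12_KO; it ended no call of the report besides those of miR-15a-5p in Ago12_KO and of miR-195a-5p in Ago12_KO against Dicer_KO (edgeR adjusted p = 0.0600 and 0.0719). The Drosha_KO and Dicer_KO depth limits most members there to under 30 counts per library.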
